A study of Mus musculus with 10 samples.

Results

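Among the RNA sequencing libraries made from osteocytes of control mice, those labelled No MM 3 and No MM 4 stood apart from the other 3 control libraries in how much of their RNA came from immunoglobulin genes. The share of all counts on genes whose names start with Igh, Igk or Igl was above 20% in these 2 libraries and below 5% in No MM 1, No MM 2 and No MM 5, and the 2 immunoglobulin-rich libraries are described here against these 3, out of 10 libraries in the series. Because the libraries were chosen by their own RNA, differences between them are described with their spread and carry no p-value. The series compared osteocytes from C57BL/6 control mice that received no myeloma cells (No MM, n = 5) with osteocytes from C57BL/6 mice bearing the mouse myeloma line Vk12598 after injection into the femur (MM, n = 5), to ask what osteocytes contribute to myeloma bone disease. All mice were labelled male and 8 weeks old, and the labels do not say whether each library came from a separate mouse. The cells were the pellets freed from pieces of bone cleared of marrow, by digestion with collagenase and EDTA. No sort is described, so other cells left in the pieces could enter a library.

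Osteocytes are the cells embedded in bone matrix, known for Sost and Dmp1. Plasma cells are the antibody-secreting end stage of the B cell lineage. They lose most B cell surface genes, switch on Prdm1, Irf4 and Xbp1, and enlarge the endoplasmic reticulum (ER), where antibody chains are folded, glycosylated and checked. A clone of such cells carries 1 joined heavy chain gene and 1 joined light chain gene, and myeloma is a cancer of plasma cells in the marrow.

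Between 31099174 and 39466332 reads were counted per library. No MM 3 and No MM 4 had 39466332 and 38195178, against 31099174, 34792531 and 36625759 in No MM 1, No MM 2 and No MM 5. Immunoglobulin genes took 10592677 and 11179524 of these counts in No MM 3 and No MM 4, against 830530, 1384201 and 237109. The totals therefore overstate the depth for other genes most in No MM 3 and No MM 4. Mitochondrial genes took 2.57% and 2.40% of counts in No MM 3 and No MM 4 and 1.12% to 4.26% in the other No MM libraries. The sex label did not hold for all libraries, and the paper's methods name male or female mice. The Y-linked gene Ddx3y reached 51.8, 47.9 and 59.9 CPM (counts scaled to a common library size) in No MM 5, MM 9 and MM 10 and at most 0.299 CPM in the other 7 libraries, both immunoglobulin-rich libraries among them. Xist, the RNA of the silenced X chromosome, was at 242 and 247 CPM in No MM 3 and No MM 4, at 35.5, 212 and 0.664 CPM in No MM 1, No MM 2 and No MM 5, and under 7 CPM among the MM libraries only in MM 9 and MM 10. Sex as the RNA shows it therefore differs among the controls, and its part in the differences below was not tested. Osteocyte genes were detected in all 5 control libraries, at levels given below. Whether No MM 3 and No MM 4 are controls, as labelled, could not be checked from the files, so every value given for them as No MM libraries rests on that label.

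Immunoglobulin genes took 26.8% of the counts of No MM 3 (95% Wilson interval 26.8% to 26.9%) and 29.3% of those of No MM 4, against 2.67%, 3.98% and 0.647% in No MM 1, No MM 2 and No MM 5 and 1.06% to 1.99% in the MM libraries. Intervals here cover counting error only. Within each chain, 1 gene took nearly all counts. Igkv4-91, a kappa light chain variable gene, held 2247856 of 2256742 kappa variable counts in No MM 3 (99.61%, 99.60% to 99.61%) and 2489988 of 2493914 in No MM 4 (99.84%). Ighv1-15, a heavy chain variable gene, held 99.06% and 99.34% of heavy variable counts. Ighg2b, the constant part of the IgG2b heavy chain, held 97.8% and 98.3% of heavy constant counts. The same 3 genes thus led in both libraries. The kappa variable genes that led No MM 1, No MM 2 and No MM 5 were Igkv12-89 (52.7%), Igkv9-123 (73.6%) and Igkv3-2 (11.8%). Ighg2b was not particular to the 2 libraries as a leading gene, since it also led the heavy constant genes of No MM 1 (52.8%). In No MM 2 and No MM 5 Ighm led them (83.1% and 81.6%). These shares describe the immunoglobulin genes by which the libraries were selected.

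**Figure D1:**
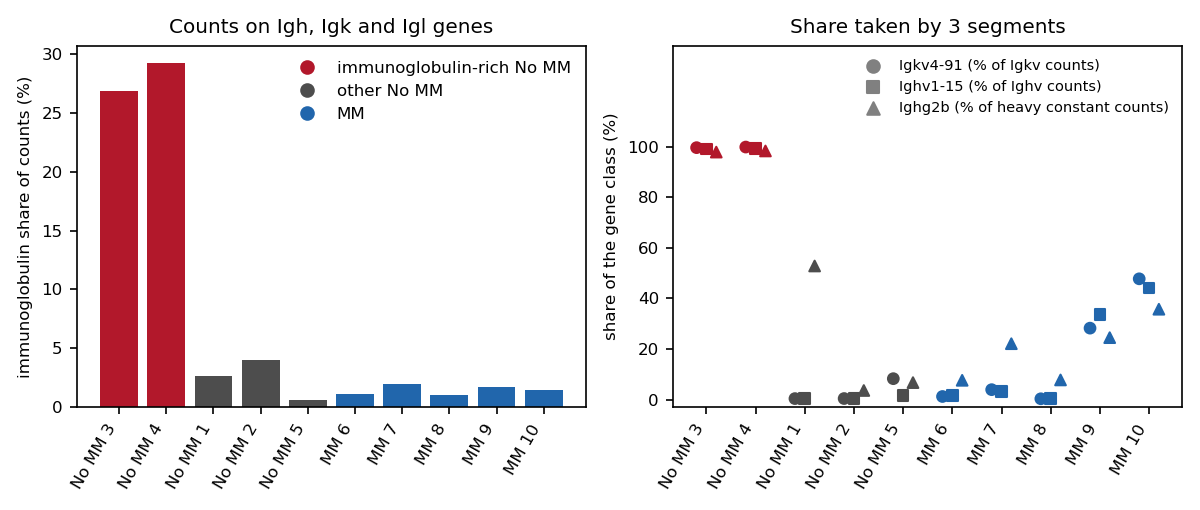
Left, bars give the percent of each library's counts on immunoglobulin genes, and right, points give the percent of kappa variable, heavy variable and heavy constant counts on Igkv4-91, Ighv1-15 and Ighg2b in each of the 10 libraries. No MM 3 and No MM 4 sit at 26.8% and 29.3% on the left and above 97% for all 3 genes on the right, and among the MM libraries MM 9 and MM 10 have the highest points for both variable genes.

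The variable genes that carried these counts are shown by the last 150 bases of their germline transcript. This lets a reader see how they can be told from their nearest relative. The counted intervals have their lower ends at chr6:68768568 and chr12:114657356, so the last bases printed for each gene lie outside its counted interval. Sequences are from GENCODE M21 on GRCm38, 5′ to 3′ on the minus strand, at chr6:68768555-68768704 and chr12:114657353-114657502, and capitals mark bases that differ from, or could not be aligned with, Igkv4-79 and Ighv1-23, the most similar of the 94 and 101 other kappa and heavy variable genes of the table with a sequence there.
Igkv4-91: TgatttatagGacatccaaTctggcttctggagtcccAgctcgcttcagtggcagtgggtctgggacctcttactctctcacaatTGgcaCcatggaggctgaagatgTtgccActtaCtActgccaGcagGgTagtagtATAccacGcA
Ighv1-15: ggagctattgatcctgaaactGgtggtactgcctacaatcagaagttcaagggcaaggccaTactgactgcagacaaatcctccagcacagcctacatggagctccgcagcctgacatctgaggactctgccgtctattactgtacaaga
Over its 358 bases Igkv4-91 shares 87.2% with Igkv4-79, which had 1 count in each of No MM 3 and No MM 4. Ighv1-15 shares 98.0% of 351 bases with Ighv1-23, which had 80 and 74 counts there, so a split of reads between these near-identical genes is possible for the heavy chain.

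Counts on joining and diversity segments are described next, and they too belong to the immunoglobulin genes by which the libraries were selected. In heavy chain joining, a variable, a diversity and a joining segment are fused and the DNA between them is lost. Ighj1, the first joining segment in the order of the locus, had 3 and 2 counts in No MM 3 and No MM 4, out of 1939 and 1593 on all joining segments (0.155% and 0.126%), while it made up 24.2%, 36.7% and 20.6% of joining counts in No MM 1, No MM 2 and No MM 5 and 10.7% to 29.2% in the MM libraries. The 6 diversity segments of the table had 0 counts in both immunoglobulin-rich libraries, where 3 counts are the limit that a count of 0 allows, against 16, 11 and 13 counts in No MM 1, No MM 2 and No MM 5. Of the segments whose counted interval matches the annotation, the near-absent one and the 2 abundant ones are printed, GRCm38, minus strand, with capitals on the bases TGGGG that open the conserved tryptophan-glycine motif.
Ighj1 (chr12:113429781-113429833): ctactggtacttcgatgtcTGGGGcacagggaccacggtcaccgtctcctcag
Ighj3 (chr12:113429085-113429132): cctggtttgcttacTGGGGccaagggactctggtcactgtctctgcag
Ighj4 (chr12:113428514-113428567): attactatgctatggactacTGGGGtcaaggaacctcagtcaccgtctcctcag
Ighj3 had 397 and 314 counts and Ighj4 703 and 592 counts in No MM 3 and No MM 4, above every other library for both segments. Ighj2, whose counted interval does not match the annotation, had the most counts of the joining segments there, 836 and 685. Of the lambda light chain genes, the constant gene Iglc2 had 31619 and 40505 counts against 1006, 2913 and 1090, and the variable gene Iglv1 went the other way, with 423 and 184 counts against 3809, 10709 and 23608.

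The same variable genes led their class in 2 of the MM libraries, whose values the choice of libraries did not use. Igkv4-91 held 28.2% of kappa variable counts in MM 9 (27.9% to 28.5%) and 47.7% in MM 10 (47.4% to 48.1%), and 0.303% to 3.91% in MM 6, MM 7 and MM 8. Ighv1-15 held 33.6% and 44.1% of heavy variable counts in MM 9 and MM 10, and 0.383% to 3.08% in the other MM libraries. In amount these were small: Igkv4-91 in MM 10 was 1.34% of its mean level in No MM 3 and No MM 4, and in MM 9 0.840%. All 5 MM libraries, from mice that received myeloma cells, were below both immunoglobulin-rich control libraries for all 3 genes. Igkv4-91 was also second in No MM 5, at 8.25% of its kappa variable counts.

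Beyond immunoglobulins, much of the transcriptome was displaced. Levels are CPM after scaling by the trimmed mean of M-values (TMM), and a gene is called higher or lower when No MM 3 and No MM 4 both lay above or below all 3 other No MM libraries and the mean log2 CPM (prior count of 2) differed by at least 1. Of 14256 genes described, 1885 were higher (13.2%) and 2212 were lower (15.5%), 543 and 494 of them by at least 4-fold. These shares are the background against which each gene list is read. The boundary passed between near-equal genes, with Nit1 at 1.00009 just inside and Elovl6 at 0.99997 just outside on the higher side, and Pdlim4 at -1.00086 just inside and Cyp2j6 at -0.99928 just outside on the lower side. The median difference over all genes was 0.03. Scaled by library totals alone, in which the immunoglobulin counts lower every other gene, the median was -0.34 and 1063 genes were higher and 3347 lower, so that genes called higher close to the limit, such as Cd79b, Canx and Dnajc3, fall short of it there. In this bulk RNA, fewer cells of a type and less RNA per cell cannot be told apart.

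**Figure D2:**
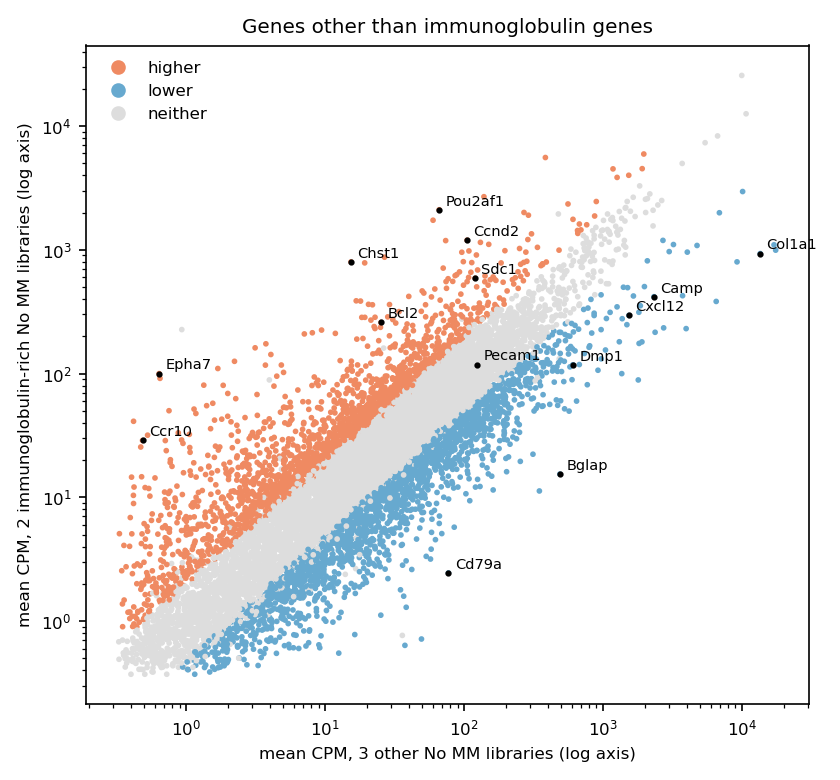
Each point is a gene other than an immunoglobulin gene, with the mean CPM of No MM 1, No MM 2 and No MM 5 on the x axis and of No MM 3 and No MM 4 on the y axis, both log axes. Genes called higher (1885) and lower (2212) flank the diagonal, with Pou2af1, Chst1 and Epha7 far above it and Bglap and Cd79a far below it.

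No MM 3 and No MM 4 resembled each other more than any other pair of control libraries. Over 14256 genes Pearson's r of log2 CPM was 0.976 between them, 0.833 to 0.874 between either and the other 3, and 0.923 to 0.958 among the other 3, as a description across genes that are not independent. Between No MM 3 and No MM 4, 802 genes (5.63%) were 2-fold apart, against 8.45% to 23.8% among the other 3 and 29.1% to 39.2% between either and the other 3. They were not 1 library deposited under both names, since their counts differed by far more than sampling noise (chi-square per degree of freedom 122).

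Most plasma cell genes were higher. Of 18 measured marker genes that passed the filter on low counts, 16 were higher and 1 lower, with a median log2 difference of 2.86. In the values that follow, the numbers before "against" are for No MM 3 and No MM 4 and those after it for No MM 1, No MM 2 and No MM 5, and log2 differences carry their SE (n = 2 and n = 3). Sdc1, the syndecan CD138 used to sort plasma cells, was at 542 and 636 against 146, 112 and 103 CPM, a log2 difference of 2.30 ± 0.22. Irf4, the transcription factor that plasma cells depend on, was at 993 and 749 against 21.2, 37.2 and 22.2 CPM (5.05 ± 0.37). The groups were well separated for both genes, and the other No MM libraries overlapped the MM libraries. Prdm1, which encodes Blimp-1 and silences the B cell program, was at 141 and 111 against 11.9, 14.8 and 19.8 CPM. Xbp1, the factor that builds up the secretory machinery, was at 1903 and 1903 against 349, 326 and 199.5 CPM. Pou2af1, a coactivator of immunoglobulin transcription, was at 1907 and 2303 against 64.9, 90.7 and 43.7 CPM, the largest difference of the list after Eaf2 and Irf4 (5.04 ± 0.41). Each of these 3 was at least several times higher in both libraries than in any other control.

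Receptors and secretory genes of the plasma cell list pointed the same way. Tnfrsf17 (BCMA), a survival receptor of plasma cells, was at 18.7 and 24.5 against 3.58, 2.65 and 0.786 CPM (3.41 ± 0.84). Jchain, listed as Igj, which links antibody multimers, was at 5477 and 5654 against 453, 483 and 222 CPM. Derl3, an ER degradation gene typical of secretory cells, was at 204 and 218 against 15.4, 17.1 and 3.15 CPM. Slamf7, Tnfrsf13b, Txndc5, Sec11c and Cd28 were also higher. Mzb1, another plasma cell ER gene, overlapped between the groups at 62.0 and 64.6 against 85.9, 70.6 and 17.5 CPM. Prg2 was lower, at 196 and 495 against 1332, 1135 and 1328 CPM, and is known chiefly as an eosinophil granule gene. Ly6k did not pass the filter and was at 0.191 and 0.107 against 2.09, 43.5 and 0.688 CPM, the opposite direction to most of the list. Summed over the list, levels were 16290.0 to 16410.2 CPM in the immunoglobulin-rich libraries, 2561 to 3611 CPM in the other No MM libraries and 1711 to 4701 CPM in the MM libraries.

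Most B cell genes, which plasma cells shut off, were lower. Of 14 mature B cell markers that passed, 9 were lower and 1 higher (median -1.70). Cd79a, a signalling chain of the B cell receptor, was at 2.93 and 1.97 against 82.5, 96.4 and 53.5 CPM (-4.94 ± 0.39). Ms4a1 (CD20) was at 1.43 and 2.14 against 18.2, 57.1 and 29.7 CPM. No MM 3 and No MM 4 were below every other library of the series for both genes. The partner chain Cd79b was the 1 member that was higher, at 163 and 209 against 99.6, 115 and 65.4 CPM (1.02 ± 0.34). Pax5, the factor that holds B cell identity, did not pass the filter and was at 0.191 and 0.179 against 6.16, 13.3 and 9.27 CPM. Among pro-B and pre-B markers 6 of 8 were lower and none was higher (median -2.07), led by Vpreb3, part of the surrogate light chain, at 1.34 and 0.894 against 30.002, 27.6 and 18.2 CPM. Rag1, Rag2, Vpreb1 and Vpreb2 did not pass. Vpreb2 had 0 counts in both libraries.

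Genes of protein folding in the ER were mostly higher, by differing amounts. Of 18 ER chaperone and disulfide genes, 13 were higher and none lower (median 1.59). Hspa5 (BiP), the main ER chaperone, was at 1944 and 1581 against 727, 624 and 477 CPM (1.55 ± 0.25). Pdia4, a disulfide isomerase, was at 1138 and 819 against 121, 121 and 84.0 CPM (3.17 ± 0.29). Creld2, a stress-induced ER protein, was at 511 and 453 against 80.8, 69.8 and 34.8 CPM. Both immunoglobulin-rich libraries exceeded all 8 others for these 3 genes. Hsp90b1 (GRP94), Sdf2l1, Manf, Hyou1 and Ero1lb were higher too. Calr, Pdia3, P4hb and Ppib were not called, and Calr overlapped between the groups at 933 and 728 against 1063, 597 and 539 CPM.

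The sensors and the degradation arm of the same organelle were also higher. Of 16 genes of ER-associated degradation and stress, 8 were higher and none lower (median 1.32). Sel1l, the scaffold of the ubiquitin ligase that clears misfolded proteins, had the largest difference of the list, at 2544 and 2826 against 139.6, 178 and 101 CPM (4.30 ± 0.31), while its ligase partner Syvn1 was at 137 and 148 against 38.3, 52.6 and 45.9 CPM (1.65 ± 0.18). The 3 stress sensors were higher: Ern1 (IRE1) by 2.75 ± 0.41, Atf6 by 2.04 ± 0.17 and Eif2ak3 (PERK) by 2.11 ± 0.26. Of the list's genes downstream of PERK, Atf4, Ddit3, Ppp1r15a and Trib3 were not called. Trib3 overlapped between the groups, with a difference of 0.88. Whether the branch as a whole differed was not tested. Atf4 was at 309 and 336 against 310.4, 256 and 325 CPM, Ddit3 (CHOP) at 13.0 and 16.7 against 23.8, 25.8 and 29.2 CPM and Ppp1r15a at 78.2 and 119.9 against 246, 182 and 116 CPM. Ddit3 lay below the other No MM libraries in both, by less than 2-fold.

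Entry into and exit from the ER differed less. In the translocation and signal peptidase list, 5 of 17 genes were higher (median 0.82), among them Spcs2 (1.81), Ssr4 (1.78) and Sec61a1 (1.23). In the N-glycosylation list, 5 of 14 were higher and 1 lower (median 0.75). Magt1 was higher (1.42) and Tusc3, its alternative in the oligosaccharyltransferase, was lower (-1.50). In ER to Golgi transport, 8 of 20 were higher and 1 lower (median 0.54), with Sec24a, a coat subunit, at 94.0 and 81.9 against 9.89, 17.0 and 19.2 CPM (2.57 ± 0.38) and Kdelr3 lower at 24.4 and 24.8 against 72.9, 38.1 and 75.8 CPM.

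The ER stress element, to which ATF6 binds, was looked for in promoters because most of the chaperone genes were higher. It is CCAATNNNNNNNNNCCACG, searched on both strands in the 300 bases around each start in RefSeq (GRCm38.p6), and 39 of 32851 promoters held it (0.119%). Of the chaperone and disulfide genes, 16 had a promoter in the table and 8 of them held the element, 7 of these 8 being among the 11 higher genes with a promoter. It was found in 1 of 14 promoters of the degradation and stress list (Syvn1) and in none of the 13, 10 and 17 promoters of the other 3 ER lists. The stretches around the element, in capitals, are shown for the abundant chaperones Hspa5, Hsp90b1 and Pdia6 and for Creld2, each read 5′ to 3′ on the gene's strand, where the element is reversed in Creld2. Hsp90b1 held 2 elements, of which 1 is shown. A match is a description of the letters and not a shown binding site. It is the same whichever libraries are compared, and a part of ATF6 in the differences was not tested.
Hspa5 (chr2:34771995-34772073, plus strand): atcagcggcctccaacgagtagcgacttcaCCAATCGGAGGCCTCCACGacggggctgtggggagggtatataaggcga
Hsp90b1 (chr10:86705608-86705686, minus strand): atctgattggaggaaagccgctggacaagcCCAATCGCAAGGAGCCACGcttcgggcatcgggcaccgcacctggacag
Pdia6 (chr12:17266461-17266539, plus strand): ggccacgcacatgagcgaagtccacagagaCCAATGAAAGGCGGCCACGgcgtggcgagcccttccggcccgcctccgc
Creld2 (chr15:88819490-88819568, plus strand): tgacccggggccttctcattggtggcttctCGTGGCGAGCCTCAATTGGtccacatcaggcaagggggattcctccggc

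Class I antigen presentation genes were mostly higher, while interferon-stimulated genes were mostly neither higher nor lower. Of 13 genes of the immunoproteasome and antigen presentation, 10 were higher and none lower (median 1.27). B2m, the light chain of class I molecules, was at 6210.5 and 5671 against 2855, 1701 and 1354 CPM (1.66 ± 0.41). H2-K1, a classical class I heavy chain, was at 5253 and 3756 against 1544, 1123 and 882 CPM (1.95 ± 0.35). Psmb8 and Psmb9, catalytic immunoproteasome subunits, were higher by 1.57 and 1.30. Tap2 and Erap1, which help to supply peptides for class I molecules, were higher by 1.69 and 1.92. Psmb10, Psme1 and Psme2 overlapped. Among 18 interferon-stimulated genes, 1 was higher (Ifi44) and 4 lower (Isg15, Isg20, Oas3 and Rsad2), with a median of -0.15. In class II, Cd74, the invariant chain, was higher at 4559 and 3129 against 1776, 1345 and 677 CPM, while the class II chains H2-Aa, H2-Ab1 and H2-Eb1 were lower. H2-Aa was at 222 and 146 against 702, 531 and 381 CPM (-1.53 ± 0.40).

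Genes of survival and of myeloma biology are given by member. Of 15 genes of the BCL2 family that passed, 5 were higher and 1 lower (median -0.22). Bcl2, which blocks cell death, was at 259 and 258 against 9.70, 31.8 and 34.6 CPM (3.55 ± 0.76). Pmaip1 (NOXA) and Bbc3 (PUMA), which promote death, were higher as well, at 79.0 and 81.1 against 3.69, 9.70 and 13.5 CPM and at 49.3 and 56.4 against 8.92, 10.2 and 8.33 CPM. Mcl1, the survival gene of normal plasma cells, was above the other No MM libraries by less than 2-fold (413 and 455 against 270.0, 309 and 341 CPM). Among cyclin D, MAF and other myeloma oncogenes, 3 of 19 were higher and 4 lower (median 0.03), near the background shares of 13.2% and 15.5%. Ccnd2 was higher, at 1387 and 1003 against 84.1, 137 and 95.5 CPM (3.51 ± 0.32), while Ccnd1 was lower at 37.3 and 25.4 against 178, 93.3 and 211 CPM and Ccnd3 at 87.7 and 132 against 684, 388 and 297 CPM. Thus 1 of the 3 D cyclins was higher and the other 2 were lower. Nfkb2, of the alternative NF-kappaB pathway, was higher (1.78 ± 0.28), and Rb1, the cell cycle brake, was lower (-1.81 ± 0.28). Maf, Nras and Trp53 were not called.

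Proliferation genes hardly differed. None of 24 cell cycle genes was higher and 4 were lower (Ccnb2, Mcm5, Rrm2 and Tyms), with a median of -0.36. Mki67 overlapped at 838 and 771 against 1009, 740.5 and 696 CPM and Top2a at 290.0 and 272 against 404, 332 and 285 CPM. In the MYC and ribosome biogenesis list 2 of 15 were higher, Nop58 and Polr1b, and Myc itself was lower, at 19.1 and 25.6 against 52.2, 40.6 and 47.8 CPM (-1.07 ± 0.21). The shares called in both lists were near the background or under it.

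Among receptors for the marrow niche, 1 gene stood far apart and the rest differed by less than 4-fold. Ccr10, the homing receptor of antibody-secreting cells for CCL27 and CCL28, was at 30.9 and 26.7 against 0.522, 0.621 and 0.319 CPM (5.77 ± 0.34). Igf1r, the receptor of a myeloma growth factor, was at 62.7 and 70.6 against 16.2, 17.5 and 20.1 CPM and Tnfrsf13c (BAFF receptor) at 35.0 and 28.5 against 5.26, 13.4 and 7.79 CPM. Itgal and Cd40 were higher too, which made 5 higher and 6 lower of 20 genes (median 0.13). The 6 lower were Cxcr3, Ccr1, Ccr2, Itgb7, Ncam1 and Cd27. Cxcr4, Itga4, Il6ra, Cd38 and Cd47 were not called. Of 13 ligand genes that passed, 3 were higher (Il10, Ccl3 and Ccl4) and 5 lower, with a median of -0.71. Il10, an anti-inflammatory cytokine, was at 36.3 and 21.2 against 0.746, 0.846 and 0.541 CPM (5.199 ± 0.37), and at 10.8 CPM in MM 8. Cxcl12, the retention signal made by marrow stroma, was lower at 229.9 and 359.8 against 964, 2093 and 1561 CPM (-2.35 ± 0.49), as were Tnfsf13b (BAFF), Vcam1, Dkk1 and Ltb.

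Bone-forming and bone-resorbing genes were lower. All 14 osteoblast genes were lower (median -3.52). Bglap, osteocalcin of the bone matrix, was at 14.6 and 16.2 against 408, 334 and 730.5 CPM (-4.91 ± 0.44), and Col1a1, the main bone collagen chain, at 1181 and 682 against 16061, 9479.9 and 15131 CPM (-3.88 ± 0.43). Both libraries were also below all 5 MM libraries for these genes (179.8 to 702 CPM and 5034 to 18892 CPM). All 12 osteoclast genes were lower (median -2.84), with Ctsk, the collagen-degrading protease, at 271 and 196 against 3560.5, 1427 and 3225 CPM and Acp5 at 471 and 381 against 6213, 1947 and 3078 CPM.

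Osteocyte genes, which name the cells of the series, were lower in part. Of 12, 7 were lower and none higher (median -1.74). Dmp1 was at 124 and 110.0 against 369, 669.7 and 792 CPM (-2.31 ± 0.44) and Phex at 20.6 and 19.3 against 118, 181 and 189 CPM (-2.99 ± 0.28). Sost, the sclerostin gene, overlapped at 155 and 108 against 141, 997 and 318 CPM, with No MM 1 between No MM 3 and No MM 4, and Mepe overlapped likewise. Among the MM libraries, Dmp1 ranged over 164 to 895 CPM.

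Other marrow lineages were lower to different degrees. All 16 erythroid genes were lower (median -3.52), with the beta globin Hbb-bs at 493 and 1494 against 30139, 16483 and 5921 CPM (-4.06 ± 1.07). No MM 3 and No MM 4 differed from each other here, with No MM 3 the lower, and the median was -2.07 without No MM 3 and -4.75 without No MM 4. Of 16 neutrophil genes 15 were lower (median -1.87), with the granule gene Camp at 308 and 527 against 2642, 2053 and 2299 CPM. Of 10 megakaryocyte genes 9 were lower (median -2.01, -1.29 without No MM 3 and -2.75 without No MM 4). Of 16 T and NK cell genes 8 were lower (median -0.88), of 15 monocyte and macrophage genes 7 (median -0.64), and of 15 dendritic cell and class II genes 7 were lower and 1 higher (median -0.77). Lyz2, the lysozyme of myeloid cells, was at 984 and 930.5 against 4079.8, 4299 and 3772 CPM, while the macrophage complement gene C1qa overlapped at 164 and 144 against 413, 211 and 109.7 CPM.

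Vessel and muscle genes did not separate the groups. None of the 12 vessel genes was higher or lower (median -0.25), with the endothelial gene Pecam1 at 131 and 105 against 161, 128 and 87.1 CPM. None of the 12 skeletal muscle genes was called, and their median moved with single libraries, from -1.26 without No MM 5 to 0.33 without No MM 4. Muscle levels varied widely among libraries, with Acta1 at 729 and 384 against 1413, 1351 and 131 CPM. In marrow stroma and adipocytes, 5 of 12 genes were lower and 1 higher (median -0.85). The adipocyte genes Adipoq and Plin1 were lower, with Adipoq at 11.98 and 6.79 against 102, 194 and 34.8 CPM, whereas Pparg, the adipocyte master regulator, was higher at 176 and 112 against 26.05, 25.6 and 14.8 CPM (2.71 ± 0.42).

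**Figure D3:**
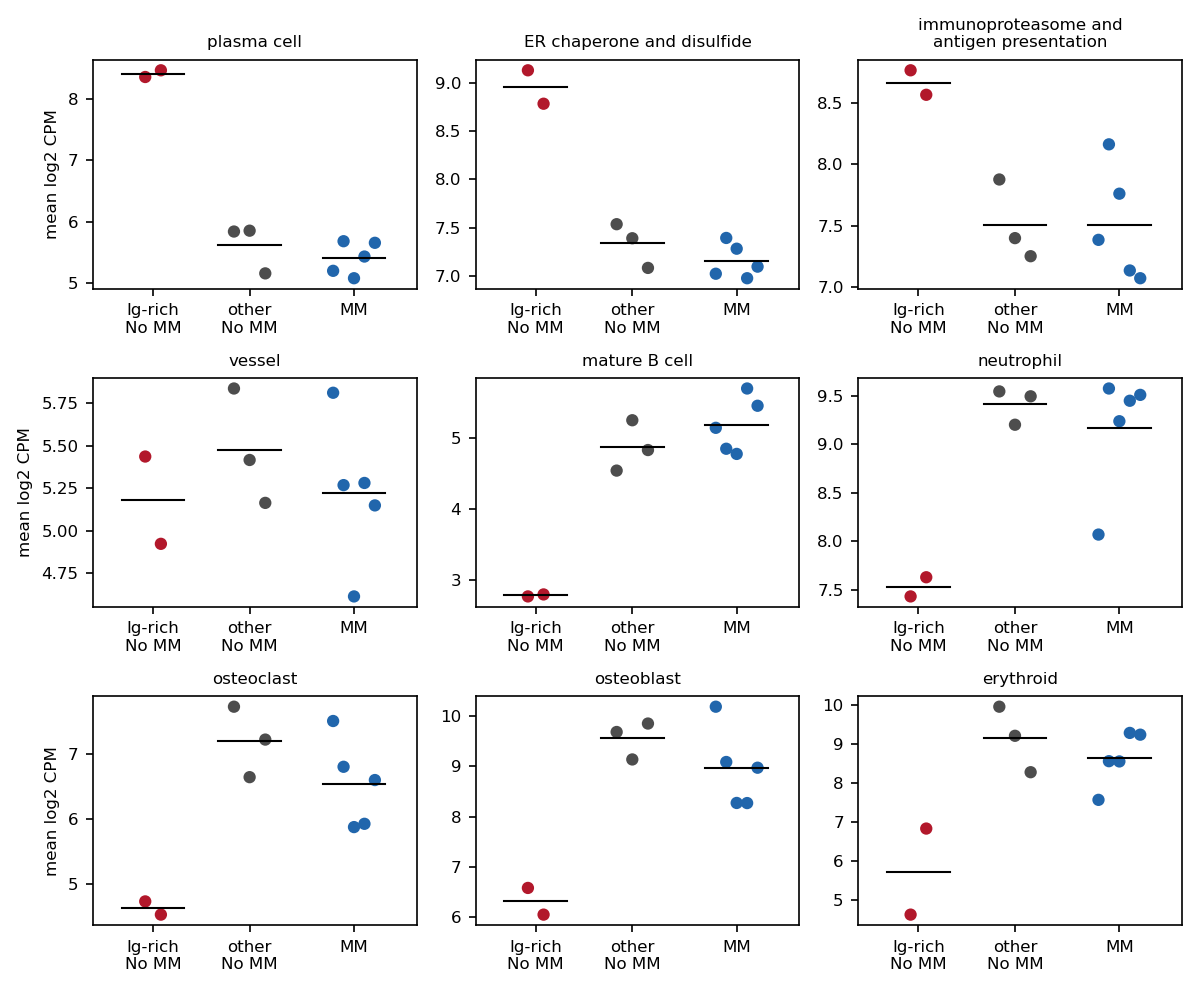
Each panel gives the mean log2 CPM over the members of 1 gene list that passed the filter, with 1 point per library and a line at the mean of the 2 immunoglobulin-rich No MM, the 3 other No MM and the 5 MM libraries. The y axes differ and do not start at 0. The immunoglobulin-rich libraries lie above the rest for plasma cell, ER chaperone and antigen presentation genes, within the range of the others for vessel genes and below the rest for the B cell, neutrophil, osteoclast, osteoblast and erythroid genes.

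In the stress-response lists, the shares called were near the background of 13.2% higher and 15.5% lower. Of 18 immediate early genes 4 were higher and 3 lower. Btg2, which restrains growth, was at 597 and 777 against 118, 144 and 115 CPM (2.45 ± 0.20), Fosb (2.98) and Jun (1.52) were higher and Egr1 was lower (-1.17), while Fos overlapped. Of 14 metallothionein and hypoxia genes 3 were higher and 2 lower. The metal-binding Mt2 was higher at 167 and 222 against 103, 32.6 and 59.2 CPM, Mt3 was lower at 6.75 and 5.54 against 61.6, 22.8 and 31.1 CPM, and the heme-degrading Hmox1 was lower at 43.6 and 36.4 against 201, 209 and 113 CPM. Hypoxia targets such as Pgk1, Ldha and Bnip3 overlapped.

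**Figure D4:**
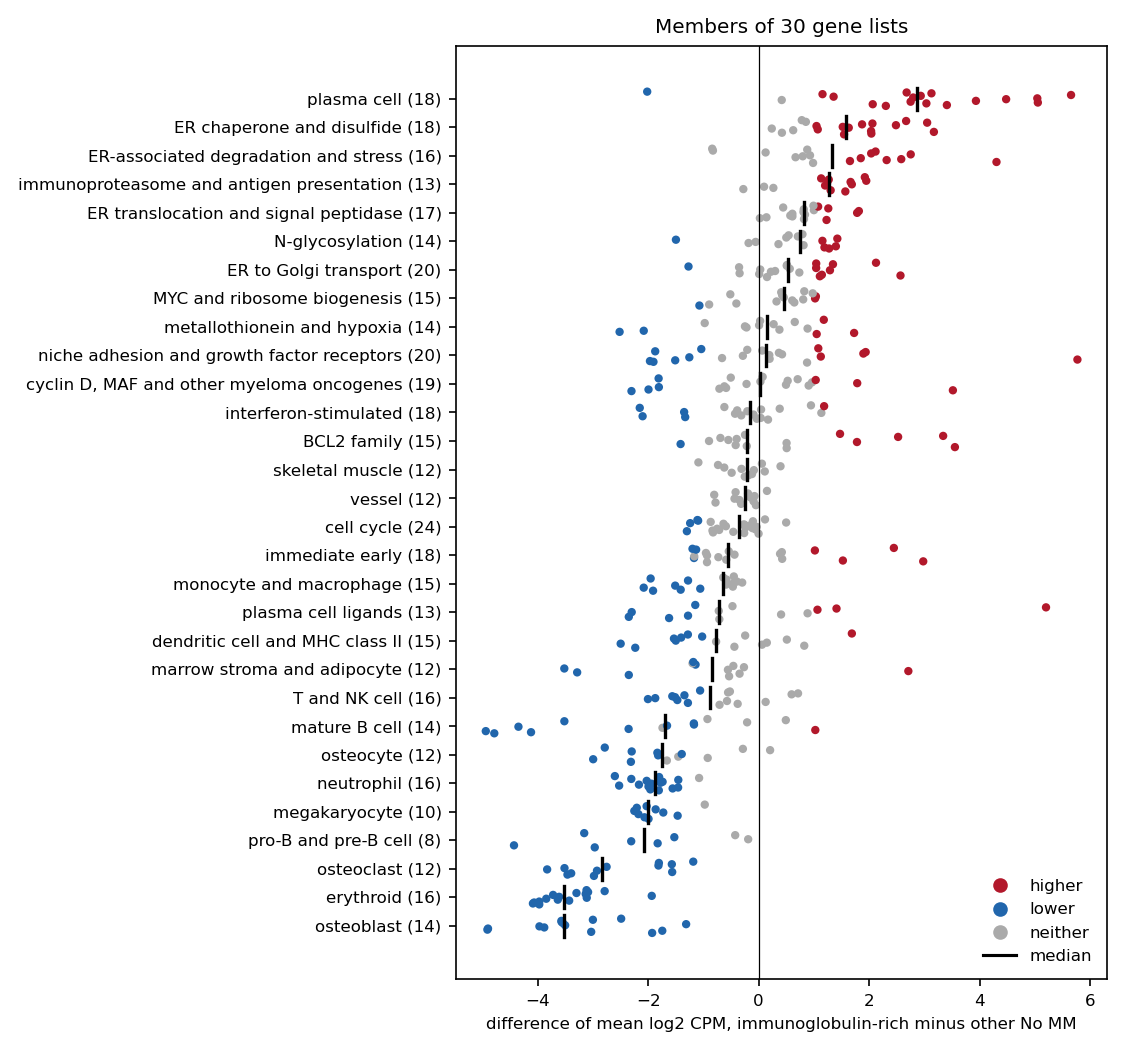
Each point is a list member that passed the filter, placed by its difference of mean log2 CPM, immunoglobulin-rich minus other No MM, with the number of members in brackets and a bar at the list's median. The plasma cell list lies farthest to the right with a median of 2.86 and the osteoblast and erythroid lists farthest to the left with medians of -3.52 and -3.52.

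The 15 genes with the largest positive differences were Epha7, Dnah11, Gpr179, H2-M10.1, Tox2, Grb7, Wnt10a, Chst1, Fut1, Ccr10, Catsperd, Lsr, Eaf2, Cldn7 and Gyltl1b. Only Eaf2 and Ccr10 were on the lists, and several of the others are usually linked with other tissues. Epha7, an ephrin receptor known from the nervous system, was at 92.7 and 107 against 0.410, 0.705 and 0.811 CPM (7.20 ± 0.36). Chst1, a sulfotransferase for keratan sulfate, was the most abundant of the 15 at 605 and 989.9 against 14.8, 27.1 and 4.37 CPM. Wnt10a, a Wnt ligand, was at 69.2 and 91.9 against 2.39, 0.959 and 0.688 CPM, and Cldn7, a tight junction protein of epithelia, at 72.6 and 65.5 against 2.13, 3.58 and 0.295 CPM. In all of these both libraries were far above the other 3, and the spread was small for Lsr (5.66 ± 0.09) and wide for H2-M10.1 (6.18 ± 2.16), the latter at 178 and 240.4 against 17.0, 4.06 and 0.270 CPM. The 15 with the largest negative differences included the B cell lineage genes Cd79a, Vpreb3, Blk and Ms4a1, 4 globin genes (Hba-a1, Hba-a2, Hbb-bs and Hbb-bt), 3 bone matrix genes (Bglap, Bglap2 and Col1a2), the peptidase gene Cpz, the citrate carrier gene Slc13a5 and Gm19980. Globin genes have near-identical copies, as have Bglap and Bglap2, so the split between copies is uncertain. Slc13a5 was at 3.70 and 2.64 against 47.2, 44.1 and 81.3 CPM.

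A further set could not pass the filter on low counts. There were 1270 genes that failed it with at least 10 counts in both immunoglobulin-rich libraries, and 586 that failed it with at least 10 counts in all 3 others. Of these, 34 genes had at least 100 counts in both immunoglobulin-rich libraries and at most 3 counts in each other No MM library, and 0 genes had the reverse. Named after their values were seen, Rfx6, a transcription factor of the endocrine pancreas, had 1800 and 2576 counts against 0, 1 and 0. Gpr158, an orphan receptor known from brain, had 1429 and 1664 counts against 0, 2 and 2. Cldn6, an embryonic tight junction gene, had 1109 and 1408 counts against 1, 0 and 0. The 34 were chosen for this pattern, which is therefore a description.

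In the MM libraries, whose values the choice of the 34 did not use, the genes were present at low levels and unevenly. More than 3 counts were found for 30 of the 34 genes in MM 10 and 23 in MM 9, against 8 in MM 7, 3 in MM 6 and 3 in MM 8. As a percent of the mean of No MM 3 and No MM 4, their median level was 2.32% in MM 10 and 1.09% in MM 9, and 0.220%, 0.067% and 0% in MM 7, MM 6 and MM 8. MM 9 and MM 10 are also the MM libraries led by Igkv4-91 and Ighv1-15, and the 2 MM libraries with Y-linked RNA. Of the 15 genes with the largest positive differences, MM 10 was the highest MM library for 11, and of the 72 genes at least 16-fold higher it was the highest for 35 (48.6%), against 16.7% of all genes described. Over all 1885 higher genes MM 10 did not stand out: it was the highest for 19.2%, against 16.7% of all genes described. MM 6 was the highest for 35.0%, against 34.6% of all genes described. The median level was 36.0% of the mean of No MM 3 and No MM 4 in MM 10 and 39.5% in MM 6.

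**Figure D5:**
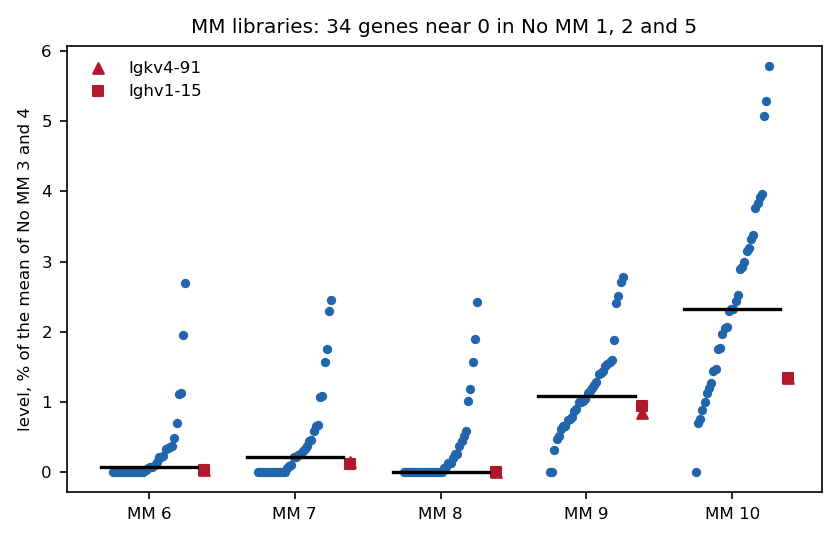
For each MM library, points give the level of 34 genes with at least 100 counts in No MM 3 and No MM 4 and at most 3 counts in each other No MM library, as a percent of the mean CPM of No MM 3 and No MM 4, and the bar is their median. The medians of MM 10 (2.32%) and MM 9 (1.09%) lie above those of MM 6, MM 7 and MM 8, and so do Igkv4-91 and Ighv1-15 (red), while single genes overlap.

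The labelled comparison of the study, MM against No MM, includes the immunoglobulin-rich libraries among the controls. With all 10 libraries, edgeR's quasi-likelihood test called 0 of 16186 genes at a Benjamini-Hochberg adjusted p under 0.05 (0% called), while 617 genes were higher and 1664 lower in MM at an unadjusted p under 0.05 and DESeq2 called 32 and 192. Without No MM 3 and No MM 4 it called 0 of 16600 (0% called), with 417 and 560 at an unadjusted p under 0.05 and 2 and 2 by DESeq2. The 2 comparisons share the other 8 libraries. The genes named next are ones for which No MM 3 and No MM 4 were extreme, so a shift in their fold change without these libraries was fixed by the choice of genes. Irf4 had a log2 fold change, MM over No MM, of -3.68 with 10 libraries and 0.08 with 8 (edgeR adjusted p = 0.315 and 0.938). Epha7 turned from -4.50 to 1.46 (edgeR adjusted p = 0.315 and 0.643). Bglap turned from 0.12 to -0.59, and the spread between libraries did not allow a call in either comparison (edgeR adjusted p = 0.961 and 0.674).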

How the data were processed

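RNA of 10 osteocyte libraries was sequenced as stranded total RNA in 76-bp paired-end format, and the submitters' processing notes name FastQC 0.11.5 and STAR. The counting program and genome build are not given in the sources used here. The authors deposited whole-number read counts per gene, which were used here. The signal that the authors deposited is the counts divided by 1 size factor per library, and the deposited FPKM values are scaled by gene length and depth. Neither was used. Log2 fold changes and p-values deposited by the authors for MM against No MM hold the study's own comparison and were left aside.

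Groups were taken from the sample labels. The libraries and gene lists were chosen with earlier results of these data known. Counts were filtered with filterByExpr of edgeR 4.0.16 in R 4.3.3 over the 5 No MM libraries without a group, which left 14305 of 22548 genes, 49 of them with an immunoglobulin prefix, and scaled by TMM over 10 libraries. The 237 prefix genes include Ighmbp2, Iglon5 and Igll1, which are no immunoglobulin segments. SE values pool the spread within both groups. Of 468 list genes, 463 were matched by symbol, 4 by identifier and 1 not. The genes named were the list members, the 15 largest differences in each direction among genes at least 4-fold apart, and the leading immunoglobulin genes. A few genes that the rule names are not reported here. For MM against No MM, edgeR's quasi-likelihood test was used, with DESeq2 1.42.0 as an alternative. Its p-values measure only the spread between these libraries, which may be technical. Alternatives were RLE, upper quartile and no scaling factor, immunoglobulin genes left out, no filter or at least 10 counts in every library, a 4-fold limit, and each library left out. GENCODE M21, on GRCm38, held 22284 of the identifiers, and for 68.4% its coordinates equalled those deposited. Variable genes were aligned with Biopython 1.88. The scripts were tested on simulated data.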

Additional observations from a re-analysis of the deposited data

Results flagged for a closer look

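In 3 of 66 sets of values tested, 1 library lay apart from the other 4 of its group by Dixon's criterion. The sets covered the 5 MM and the 5 No MM libraries, and the criterion flags about 1 in 20 groups by chance. In all 3 sets the library apart was MM 6. Its mitochondrial share of counts was 5.21% against 2.06% to 2.89% in the other MM libraries. Its mean log2 CPM over neutrophil genes was 8.07 against 9.24 to 9.58, and over cell cycle genes 5.65 against 6.74 to 7.03. The 5 No MM libraries were tested as 1 group, and none of them was flagged. The criterion looks for a single library apart, and the groups of 2 and 3 control libraries are too small for it.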

How the results depend on the processing

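The 12 list medians of at least 1 in size kept their direction under each scaling, filter and left-out library, while the small medians of the BCL2 family, myeloma oncogene, interferon, metallothionein, niche receptor, skeletal muscle and vessel lists turned in sign under some. The 1885 higher and 2212 lower genes became 1063 and 3347 with library totals and no scaling factor, where the median of all genes moved to -0.34, and 543 and 494 at a 4-fold limit, by construction. Without a filter 3267 genes were higher. With each No MM library left out, 1897 to 2193 genes were higher and 2212 to 2446 lower. Between 12 and 14 lists had a median of at least 1 in size with a library left out, against 12 with all libraries and 15 with library totals, where ER-associated degradation (0.94) and immunoproteasome (0.89) fell below 1 and 5 lists of lower genes passed it. Of 330 list medians under alternatives, 319 moved by under 0.5, and 11 by more. The pro-B and pre-B median was -3.07 without a filter. Shares of counts moved by under 0.01 percentage points without Ighmbp2, Iglon5 and Igll1. In the labelled comparison DESeq2 called 32 genes higher and 192 lower in MM where edgeR called 0 and 0, and the cause was not tested. edgeR called 0 and 0 also with RLE factors, with no filter and with each library left out, where the smallest adjusted p ranged from 0.070 without No MM 5 to 0.656 without No MM 3. No paired analysis was possible because the No MM and MM mice share no replicate number. Only 2 libraries are immunoglobulin-rich, so their spread is known from 1 difference, and genes under 3 counts in a library cannot be told from 0.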

Other observations

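Further genes beyond the lists, all picked singly after their values were seen and standing for no gene group, stood apart in No MM 3 and No MM 4. In values for No MM 3 and No MM 4 against No MM 1, No MM 2 and No MM 5, the kinase gene Pim2 was at 189 and 260.2 against 9.70, 10.3 and 8.43 CPM, Map3k14 (NIK), the kinase that drives the alternative NF-kappaB pathway, at 258 and 311 against 14.7, 21.7 and 21.8 CPM, and Ikzf3 (Aiolos), a lymphoid factor, at 163 and 221 against 16.01, 22.7 and 17.6 CPM. Bhlha15 (MIST1), a factor of secretory cells, was at 79.97 and 110.4 against 5.07, 6.601 and 1.84 CPM, and Cd274 (PD-L1) at 80.1 and 88.2 against 5.34, 9.45 and 11.3 CPM. The cationic amino acid transporter gene Slc7a3 was at 31.6 and 18.8 against 0.634, 1.97 and 0.590 CPM, Pycr1, of proline synthesis, at 149.5 and 141 against 37.8, 22.0 and 15.6 CPM, and Shmt2, of serine and glycine metabolism, at 286 and 269 against 136, 55.8 and 57.6 CPM. The adhesion gene Epcam was at 263 and 209 against 16.3, 43.6 and 15.5 CPM, the protease gene St14 at 224 and 204 against 7.58, 10.01 and 6.78 CPM and the desmosome gene Dsp at 51.6 and 20.2 against 1.27, 1.75 and 1.499 CPM. Fgf21, a metabolic hormone, was at 159 and 166 against 0.224, 0.141 and 0.172 CPM, and Aire, known from the thymus, at 69.1 and 123 against 0.149, 0.0564 and 0.172 CPM. Prg3, an eosinophil granule gene, was higher at 2276 and 1190.1 against 64.1, 56.2 and 59.8 CPM, although its relative Prg2 was lower.

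Of 21 genes of the nonclassical class I family with names starting H2-Q, H2-M or H2-T, 12 passed the filter, 7 were higher and 0 lower (median 1.21), and their summed level was 2579 to 2908 CPM in the immunoglobulin-rich libraries against 730.1 to 1092 CPM in the other No MM libraries and 749.9 to 1821 CPM in the MM libraries. These genes resemble each other, so the split of reads between them is uncertain. The mast cell protease genes Cma1 and Tpsb2 were high in 1 control library only, with Cma1 at 0.860 and 0.572 against 141, 0.874 and 7.10 CPM.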
